A study of Mus musculus with 59 samples.

Results

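Calcium/calmodulin-dependent protein kinases (CaM kinases) were examined through 10 genes in RNA-seq of mouse prefrontal cortex. The genes are Pnck, Camk1, Camk1d, Camk1g, Camk4, Camk2a, Camk2b, Camk2d, Camk2g and Camkk2. They were taken by name from the 51456 genes of the deposited table, and all 10 passed the filter on low values (a mean of at least 10 normalized counts) that left 16839 genes for testing. The set was chosen by gene family and selected on 1 measured value, the lower level of Pnck under lithium in these same libraries. The lithium differences of the 10 genes are therefore given as a description, with no test.

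CaM kinases are serine/threonine kinases that are switched on when calcium enters a neuron and binds calmodulin. CaMKII, built from the products of Camk2a, Camk2b, Camk2d and Camk2g, is a large holoenzyme that is abundant at excitatory synapses and is best known for its role in long-term potentiation. CaMKI (Camk1, Pnck, Camk1d, Camk1g) and CaMKIV (Camk4) are single-subunit kinases, and they reach full activity only after an upstream kinase such as CaMKK2 has phosphorylated them. CaMKIV is concentrated in the nucleus, where it acts on CREB-dependent transcription.

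The study measured poly(A) RNA from 59 prefrontal cortex samples of C57BL/6J mice, taken on postnatal day 25. Pups carried the Chd8-S62X allele in the heterozygous state (HT) or were wild type (WT), of either sex, and received vehicle, fluoxetine (a serotonin reuptake inhibitor) or lithium through their mother's milk from postnatal day 3 to 24. Of the 12 groups of genotype, drug and sex, 11 held 5 samples and the HT fluoxetine females held 4. The labels give no drug dose, dam or litter, so the p-values here measure the spread between these samples, whose origin from separate litters is not stated.

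Normalized counts summed to between 30342634 and 33683928 per library. Chd8 itself, a chromatin remodeller on chromosome 14, went against the genotype label. Its level was 5921 ± 384 normalized counts (SD, n = 29) in the libraries labelled HT and 3656 ± 309 (SD, n = 30) in those labelled WT, and the lowest HT-labelled value (5115) lay above the highest WT-labelled value (4229). Every direction drawn from genotype below is therefore between the libraries labelled HT and the libraries labelled WT. The libraries also differed in neighbouring tissue. Averaged on the log2 scale, 5 markers of the olfactory bulb ranged from 4.60 to 11.09 over the libraries and 10 striatal markers from 8.47 to 11.54, and 8 libraries stood more than 5 robust SDs above the median in the striatal markers. Excitatory neuron markers were well detected in every library, with a mean log2 level of 10.40 to 11.22.

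Some of these kinase genes are close relatives, so their shared sequence was checked first. Pnck, Camk1g, Camk4 and Camk2g shared no run of 31 bases with any other gene in the GENCODE M21 transcripts (GRCm38). The largest share was in Camk2a, where 59 of 7473 different 31-base words (0.79%) also occurred in another gene. The longest coding runs that Pnck has in common with another of these kinases, and the longest between 2 of the other CaMKI genes, are shown so that the identical stretches can be seen. The longest between any 2 members, 32 bases in Camk2a and Camk2b, is not shown. The sequences are shown 5′ to 3′ on the coding strand, with no base singled out:
Pnck and Camk1: ccaggatatgtggcccc
Pnck and Camk1d: gccaaagacttcattcg
Camk1 and Camk1g: agaagaactttgccaagagcaagtgga
The first pair of runs is 17 bases long and the third 27 bases, all below the 31-base word length. Pnck overlapped no other annotated gene, whereas 945 bases of Camk1 lie antisense to Ogg1, a DNA repair gene. Library preparation kept strand, per the labels, but whether the counting used strand is not given in the sources used here.

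On a per-length scale (mean normalized counts per kilobase of merged exons), Camk2a had the highest level of the 10, at 12280, followed by Camk2b at 2762. Camkk2 at 1083 and Camk2g at 1062 came next. Pnck stood at 772.9, Camk4 at 754.5, Camk1d at 649.6, Camk1g at 471.7, Camk1 at 452.2 and Camk2d at 176.2. The first 4 places in this order were the same when the longest coding transcript was used as the length, but the lower 6 changed places. Camk1 moved from 9th to 5th, because its merged exons (5975 bases) are much longer than its longest coding transcript (1496 bases).

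Pnck (ENSMUSG00000002012) lies on the minus strand of the X chromosome, at chrX:73655994-73660117 in GRCm38, and encodes pregnancy up-regulated non-ubiquitous CaM kinase, also called CaMKI beta. Its level over all 59 libraries was 1523 ± 225 normalized counts (SD), from 1093 in an HT-labelled lithium female to 1972 in a WT-labelled fluoxetine male, a 1.80-fold range. The mean was highest in WT-labelled fluoxetine libraries (1777 ± 124, SD, n = 10), followed by WT-labelled vehicle (1713 ± 111, n = 10). HT-labelled fluoxetine (1505 ± 182, n = 9) and HT-labelled vehicle (1497 ± 144, n = 10) formed a middle pair that differed by less than the SD of either. WT-labelled lithium (1354 ± 151, n = 10) and HT-labelled lithium (1293 ± 153, n = 10) were lowest and again lay within 1 SD of each other.

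**Figure D1:**
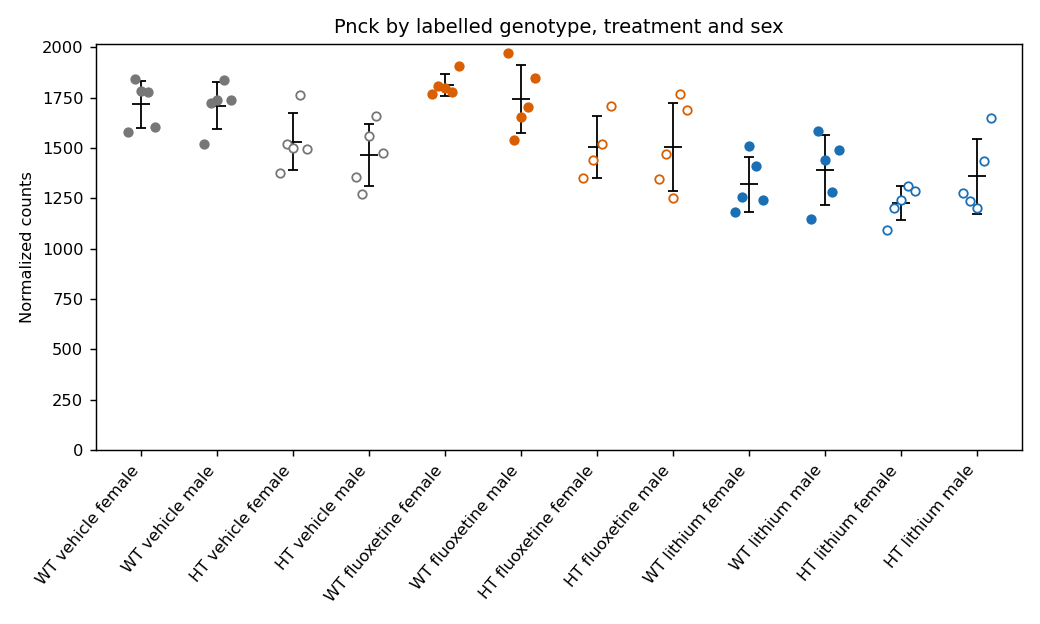
Pnck in normalized counts (vertical axis) for each of the 12 groups of genotype label, drug and sex; each point is 1 library, filled for WT-labelled and open for HT-labelled, and bars give the mean and SD. The lithium groups have means of 1227 to 1389, below the vehicle groups at 1464 to 1716, and among vehicle and fluoxetine libraries the HT-labelled groups (1464 to 1530) lie below the WT-labelled groups (1710 to 1811).

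In vehicle females, the HT-labelled libraries had 1376, 1517, 1500, 1762 and 1495 normalized counts of Pnck. The WT-labelled vehicle females had 1579, 1844, 1781, 1775 and 1602. Of the 5 HT-labelled libraries, 4 lay below all 5 WT-labelled ones and only replicate 4 reached into their range. In vehicle males, the HT-labelled values were 1356, 1273, 1559, 1657 and 1474. The WT-labelled vehicle males had 1518, 1721, 1736, 1836 and 1739. Here 3 of 5 HT-labelled libraries were below every WT-labelled one. Among fluoxetine females, the HT-labelled values were 1351, 1440, 1520 and 1709. The WT-labelled fluoxetine females had 1770, 1806, 1797, 1777 and 1906, so that these groups did not overlap. How many of all genes separate in this way between these groups was not counted. For fluoxetine males, the HT-labelled values were 1348, 1470, 1249, 1768 and 1689. Their WT-labelled counterparts had 1972, 1539, 1654, 1701 and 1847, and the ranges overlapped. Under lithium the genotype groups ran together. HT-labelled lithium females had 1093, 1200, 1243, 1311 and 1287, and WT-labelled lithium females had 1180, 1255, 1508, 1410 and 1242. HT-labelled lithium males had 1274, 1235, 1200, 1434 and 1650, and WT-labelled lithium males had 1148, 1585, 1441, 1283 and 1489. In both sexes the ranges of the lithium groups overlapped between genotype labels.

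The genotype comparison asked how the 10 kinases differed between libraries labelled HT and WT, averaged over the 6 combinations of drug and sex. Pnck fell by 0.17 ± 0.037 (SE) on the log2 scale in the HT-labelled libraries, with a 95% interval of −0.24 to −0.10, which is 11.1% less. It passed the threshold in limma's moderated test with Benjamini-Hochberg adjustment over all 16839 genes (adjusted p = 0.00201), and 25 of 29 HT-labelled libraries lay below the WT-labelled median. In this fit it was the only one of the 10 kinases to pass, 1 of 10, beside 7.98% of all genes tested. The count for the family is therefore near the background share here. With the bulb marker level as covariate, Camk1g, Camk2a and Camkk2 passed too, and more of all genes were called. Because this is bulk tissue, fewer cells that express a gene and less RNA per cell cannot be told apart.

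Split by drug, the Pnck difference between genotype labels was −0.20 ± 0.063 (SE, log2) in vehicle libraries, with an adjusted p of 0.209 in limma, beside 0.202% of genes called. It was −0.25 ± 0.065 in fluoxetine libraries and passed narrowly there (limma adjusted p = 0.0493), as the only kinase of the 10, where 0.849% of all genes were called. This call was lost without the 8 libraries high in striatal markers (−0.19, limma adjusted p = 0.248) and when any of 14 of the 19 fluoxetine libraries was left out. The fluoxetine libraries among those 8 were HT-labelled female replicates 1 and 2, so only that fluoxetine group became smaller. With the bulb and striatal marker levels together as covariates the call held (−0.27, limma adjusted p = 0.0140). In lithium libraries the difference was −0.07 ± 0.063 (limma adjusted p = 0.748), with 0.267% of genes called. All 6 strata of drug and sex had a Pnck value below 0, from −0.27 in fluoxetine females to −0.03 in lithium males.

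Several tissue markers moved with the genotype label in the same libraries. The 5 olfactory bulb markers were all above 0 in the HT minus WT comparison (median 0.30, log2), as were 6 of 6 oligodendrocyte markers (median 0.18) and 9 of 10 striatal markers (median 0.12). Excitatory neuron markers were below 0 in 9 of 10 (median −0.10). None of these marker genes passed the threshold. With the bulb marker level as a covariate the Pnck difference was −0.18 (limma adjusted p = 0.000117), and with the oligodendrocyte level it was −0.15 (adjusted p = 0.00694). Without the 8 libraries high in striatal markers it was −0.15 (adjusted p = 0.0220). The call therefore held in each of these fits.

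Lithium was set against vehicle, again without a test for the members because this contrast drew attention to Pnck. The log2 difference of Pnck under lithium was −0.28 ± 0.044 (SE), or −17.6%. The SE takes no account of the choice of Pnck by this same difference. Of the 20 lithium libraries, 19 lay below the vehicle median of 1591 and 9 lay below the lowest vehicle library. The difference was −0.34 in WT-labelled libraries, where 9 of 10 lithium values were below every vehicle value, and −0.21 in HT-labelled libraries, where 5 of 10 were. By sex, lithium and vehicle values did not overlap in HT-labelled females (−0.32) or WT-labelled females (−0.38). The share of all genes without overlap in these groups was not counted. The Pnck values overlapped in HT-labelled males (−0.11) and WT-labelled males (−0.31).

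Pnck was the member that stood apart in this contrast, by choice. Of all 16839 genes, 4.41% were called between lithium and vehicle. The other 9 kinases had differences from −0.06 (Camk2d) to 0.15 (Camk1g), with a median of −0.004, close to the median of −0.0004 over all genes tested. Camk1g went the other way from Pnck, at 1359 ± 207 normalized counts (SD, n = 20) under lithium and 1232 ± 239 (SD, n = 20) under vehicle, with wide overlap. Striatal markers were higher under lithium in 10 of 10 (median 0.24, log2; 1 passed) and meningeal markers lower in 5 of 5 (median −0.36; 1 passed). Bulb markers were below 0 in 5 of 5 (median −0.27; none passed). With bulb and striatal marker levels both in the model, the Pnck lithium difference was −0.27, and without the 8 libraries high in striatal markers it was −0.30.

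The 2 lithium effects on Pnck, in HT-labelled and WT-labelled libraries, differed by 0.13 ± 0.089 (SE, log2). Female and male lithium effects differed by −0.14 ± 0.089. Neither the lithium by genotype nor the lithium by sex comparison called any gene in limma (0 of 16839 in each, with 386 and 438 genes at an unadjusted p under 0.05). At this replication, no genotype or sex difference in the lithium effect on these kinases was detected. The power to detect one was not measured.

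Fluoxetine was compared with vehicle over both genotype labels and sexes, and none of the 10 kinases passed in limma, where 0.0653% of all genes did. Pnck differed by 0.03 ± 0.045 (SE, log2), with a 95% interval of −0.06 to 0.12 and a limma adjusted p of 0.826. The 19 fluoxetine libraries (1249 to 1972 normalized counts) covered the whole range of the 20 vehicle libraries (1273 to 1844). The largest fluoxetine differences among the members were 0.09 for Camk1g and Camk2a, 0.07 for Camkk2 and −0.08 for Camk2d (limma adjusted p of 0.622, 0.540, 0.529 and 0.484). In all, 9 of 10 values were above 0, with a median of 0.03, against a median of 0.001 over all genes. Olfactory bulb markers were lower in the fluoxetine libraries in 5 of 5 (median −0.64, log2; none passed). With the olfactory bulb and striatal levels as covariates, 7 of 10 values were above 0 (median 0.03) and none passed. Camk1g was then at 0.06, Camk2a at 0.05, Camkk2 at 0.04 and Camk2d at −0.06. No member passed within HT-labelled libraries, where 0% of genes were called by limma (857 at an unadjusted p under 0.05), or within WT-labelled libraries, where 0.19% were. Fluoxetine by genotype and fluoxetine by sex called no gene (1040 and 600 at an unadjusted p under 0.05).

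Females and males did not differ detectably in any of the 10 kinases, where 0.154% of all genes were called by limma. This holds for the X-linked Pnck too, with 1519 ± 237 normalized counts (SD, n = 29) in females and 1528 ± 218 (SD, n = 30) in males. The difference was −0.01 on the log2 scale, with a 95% interval of −0.09 to 0.06, so a sex difference larger than these bounds was outside the interval.

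**Figure D2:**
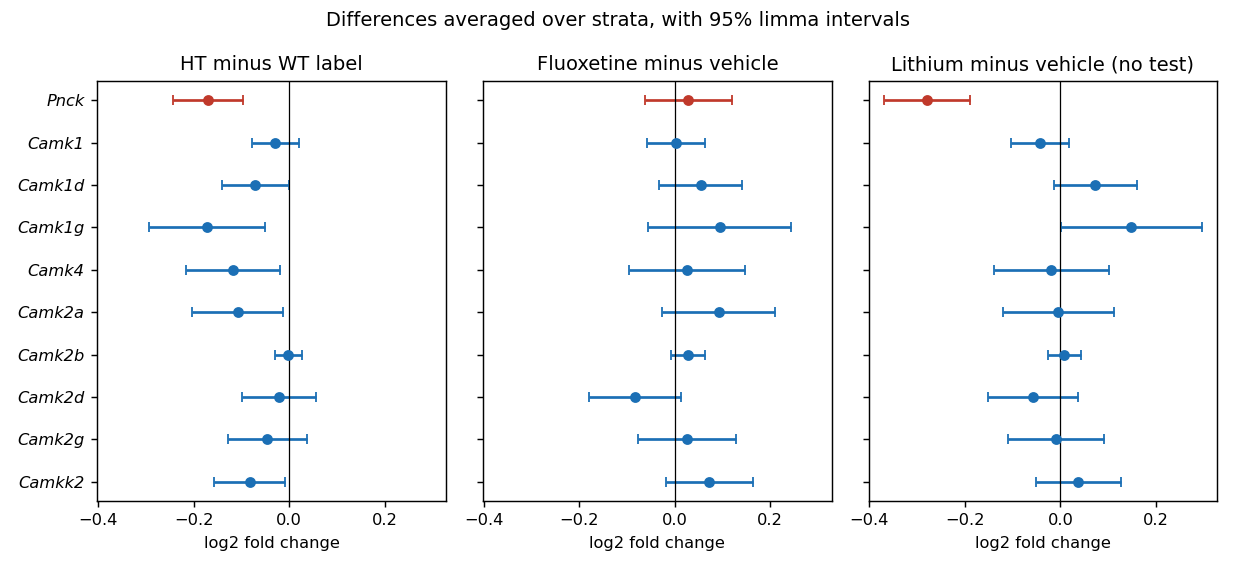
Log2 differences of the 10 kinases (horizontal axis) with 95% intervals from limma for the genotype, fluoxetine and lithium comparisons (1 panel each), averaged over strata, with Pnck in red and the others in blue. Pnck lies below 0 for genotype (−0.17) and lithium (−0.28, shown as a description with no test), and the other members lie between −0.17 and 0.15 in the 3 panels. The lithium interval of Pnck takes no account of its choice by that value.

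Among the other single-subunit kinases, none passed for genotype. Camk1g, the CaMKI gamma gene, is attached to membranes by lipid anchors and is known for a part in dendrite growth. It had the same size of genotype difference as Pnck, −0.17 ± 0.061 (SE, log2), but a wider spread, and did not pass (limma adjusted p = 0.0664). Its HT-labelled libraries ran from 862 to 1757 normalized counts with a median of 1198, and its WT-labelled libraries from 1065 to 1749 with a median of 1375. The lowest and the highest Camk1g values both came from HT-labelled vehicle males (replicates 4 and 1), and 9 of 29 HT-labelled libraries lay below every WT-labelled one. Camk1g passed with the bulb marker level as covariate (−0.15, limma adjusted p = 0.0420) but not with the bulb and striatal levels together (−0.13, adjusted p = 0.0677).

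Camk4, the nuclear CaMKIV, differed by −0.12 ± 0.049 between genotype labels (limma adjusted p = 0.128). It had 2363 ± 333 normalized counts (SD, n = 29) in HT-labelled and 2552 ± 260 (SD, n = 30) in WT-labelled libraries. Camk1d, the CaMKI delta gene, differed by −0.07 ± 0.035 (adjusted p = 0.209), from 4710 ± 492 to 4936 ± 350 normalized counts in the same order. Camk1, the founding CaMKI, differed by −0.03 ± 0.025 (adjusted p = 0.487), at 2674 ± 170 and 2729 ± 179. The genotype groups overlapped for all 3 genes.

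**Figure D3:**
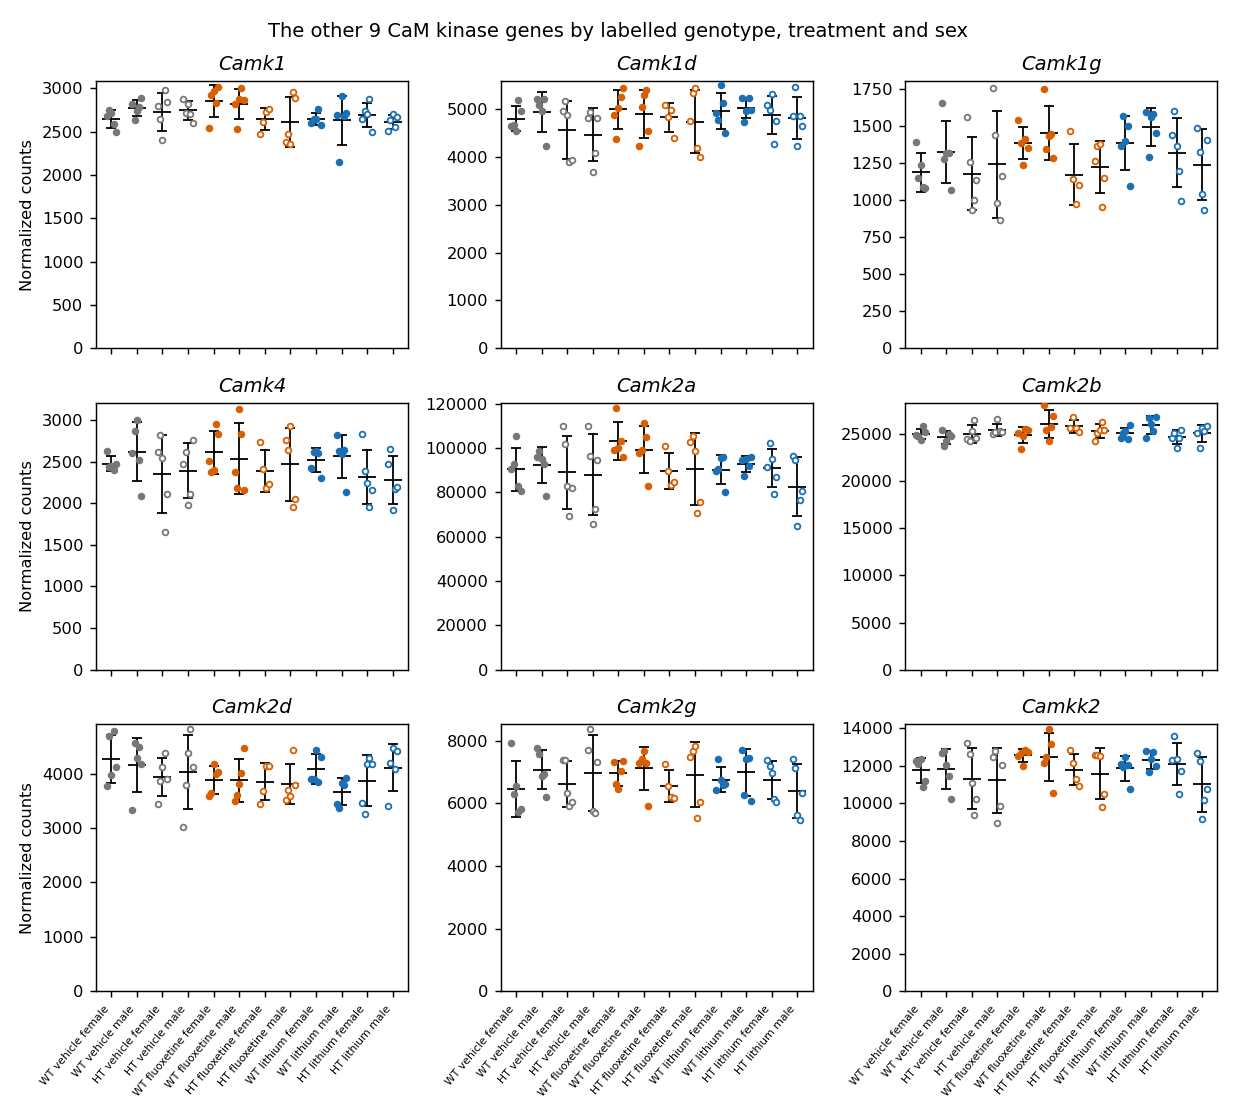
The 9 other kinases in normalized counts (vertical axes, 1 panel per gene) for the 12 groups of genotype label, drug and sex; each point is 1 library, filled for WT-labelled and open for HT-labelled, with bars for mean and SD. The groups overlap in every panel for genotype over all libraries, and the HT-labelled vehicle male libraries of Camk1g span 862 to 1757.

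Among the CaMKII subunits, none passed in the genotype, fluoxetine or sex comparison in the main fit. Camk2a passed for genotype with the bulb marker level as covariate, but not with the bulb and striatal levels together (limma adjusted p = 0.0613). Camk2a, the alpha subunit and the main form in forebrain excitatory neurons, had 88457 ± 13209 normalized counts (SD, n = 29) in HT-labelled and 94744 ± 8884 (SD, n = 30) in WT-labelled libraries. The difference was −0.11 ± 0.048 (SE, log2; limma adjusted p = 0.153), and 7 of 29 HT-labelled libraries were below every WT-labelled one. Camk2b, the beta subunit that binds actin, was the steadiest of the 10, with a 1.20-fold range over the 59 libraries. Its genotype difference of −0.002 had a 95% interval of only −0.03 to 0.03. Camk2g, the gamma subunit, differed by −0.05 ± 0.042 (adjusted p = 0.528) and Camk2d, the delta subunit, by −0.02 ± 0.039 (adjusted p = 0.764).

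Camkk2, the upstream kinase, activates CaMKI and CaMKIV and also AMP-activated kinase (AMPK). It had 11500 ± 1323 normalized counts (SD, n = 29) in HT-labelled and 12138 ± 810 (SD, n = 30) in WT-labelled libraries, a difference of −0.08 ± 0.037 (SE, log2; limma adjusted p = 0.156). Camkk2 passed with the bulb marker level as covariate, but not with the bulb and striatal levels together (limma adjusted p = 0.0648). For Camkk2 as for Camk2a, 7 of 29 HT-labelled libraries lay below the lowest WT-labelled one, and the WT-labelled spread was the smaller. All 10 kinases had a genotype value below 0, with a median of −0.08, while 49.2% of all genes tested were below 0. Their values are not independent of each other, as the correlations between them show.

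After each group mean was subtracted, many of the 10 kinases were correlated with each other across the 59 libraries. Over the 45 pairs, p-values from 100000 permutations were adjusted together, and 36 pairs had an adjusted p under 0.05. The share among pairs of all genes was not computed, so this count does not single out the kinases. Camk2a and Camkk2 were the closest pair (Pearson r = 0.94, Spearman rho = 0.92, permutation adjusted p = 2.1e-05 for r, and r = 0.93 without the 2 farthest libraries). Camk2g and Camkk2 followed (r = 0.87, rho = 0.88, the same permutation adjusted p, r = 0.88 without 2 libraries). Camk2d ran the other way (r = −0.64 with Camk2g and −0.62 with Camkk2), as did Camk2b (r = −0.41 and −0.50). Pnck did so too, and was positive with Camk2d (r = 0.55), Camk2b (r = 0.41) and Camk1 (r = 0.28). Pnck was opposite to Camk2g (r = −0.62, rho = −0.63, permutation adjusted p = 2.1e-05, r = −0.64 without 2 libraries) and to Camkk2 (r = −0.51, rho = −0.54, permutation adjusted p = 6.1e-05, r = −0.54 without 2 libraries). The raw p of 1e-05 behind the value of 2.1e-05 is the smallest that these permutations can give.

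**Figure D4:**
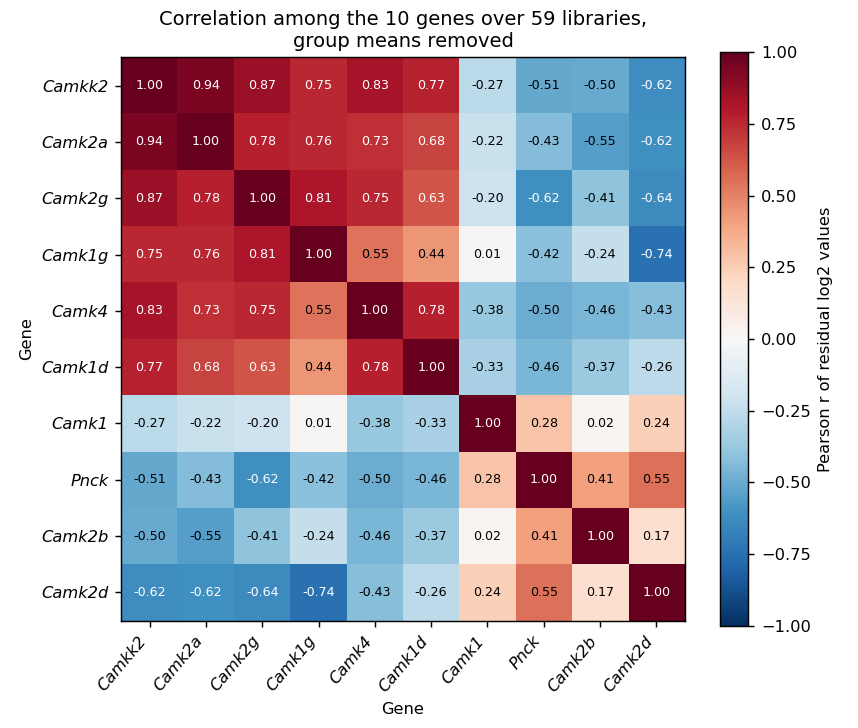
Pearson correlations between the 10 kinases across 59 libraries after subtraction of each group mean, as a colour matrix from −1 to 1 with genes on both axes. Camk2a, Camk2g, Camk4, Camk1g, Camk1d and Camkk2 form a positive block (0.94 for Camk2a with Camkk2), and Camk2d, Pnck and Camk2b are negative to it (−0.74 for Camk1g with Camk2d). Camk1 is negative to all of the block but Camk1g (0.01).

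Promoter windows of 250 bases before the transcription start were found in the RefSeq table (GRCm38.p6) for 6 of the 10 genes, in 7 windows. Pnck, Camk2a, Camk2g and Camk4 were not matched. Camk1g and Camkk2 are shown as a pair picked because they varied together across libraries (Pearson r = 0.75) and their windows differ in base composition. Camk1d was closer to Camkk2 (r = 0.77), and its 2 windows have a GC content of 69.2% and 48.4%. A relation between window composition and joint variation was not tested. They are written 5′ to 3′ on the gene's own strand, and capitals mark a GC box core (GGGCGG or its reverse complement CCGCCC). The Camk1g window is chr1:193370283-193370532 (minus strand) and the Camkk2 window is chr5:122779411-122779660 (minus strand).
Camk1g: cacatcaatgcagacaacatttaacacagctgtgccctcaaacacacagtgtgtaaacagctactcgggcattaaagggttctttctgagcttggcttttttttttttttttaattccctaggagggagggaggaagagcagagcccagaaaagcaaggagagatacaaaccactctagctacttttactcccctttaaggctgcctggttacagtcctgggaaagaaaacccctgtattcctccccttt
Camkk2: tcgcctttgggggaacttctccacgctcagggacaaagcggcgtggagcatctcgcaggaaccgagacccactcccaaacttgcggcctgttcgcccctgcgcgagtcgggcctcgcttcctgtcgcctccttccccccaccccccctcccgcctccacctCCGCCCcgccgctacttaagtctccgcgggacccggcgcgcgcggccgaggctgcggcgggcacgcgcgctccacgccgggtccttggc
The Camk1g window has a GC content of 44.8% and none of the motifs searched. The Camkk2 window has a GC content of 72.4% and 1 GC box core, 89 bases before the start. Over the 7 windows of these genes, 5 held GGGCGG or CCGCCC, against 32.7% of 32851 windows genome-wide. The CREB half-site core TGACG or its reverse complement CGTCA was found in 1 of the 7, that of Camk1, 185 bases before the start, against 17.8% of all windows.

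Most members followed the level of tissue markers from library to library. The share of all genes that did so was not computed, so this does not single out the kinases. For 40 pairs of a kinase and a marker list, correlations of the group-centred values over 59 libraries were tested with 100000 permutations and adjusted together. These p-values too run somewhat small, as for the pairs of kinases above. Camkk2 (r = −0.83, rho = −0.85), Camk2a (r = −0.82, rho = −0.83) and Camk4 (r = −0.75, rho = −0.76) were lower where olfactory bulb markers were higher. Each had a raw permutation p of 1e-05, the smallest possible, and r of −0.81, −0.81 and −0.74 without the 2 farthest libraries. Camk2d (r = 0.57, rho = 0.57), Camk2b (r = 0.56, rho = 0.54) and Pnck (r = 0.49, rho = 0.49) were higher there. For Pnck the permutation p was 9e-05 (adjusted 0.00019), with r = 0.48 without the 2 farthest libraries. Against striatal markers, Camk1 was the member that passed by Pearson's r (r = −0.77, rho = −0.73, permutation p = 1e-05, and r = −0.67 without 2 libraries). Camk2d passed there by rank (rho = −0.34, permutation adjusted p = 0.0140) but not by r (r = −0.22, permutation adjusted p = 0.143), and Pnck did not pass by r (r = −0.10, rho = −0.24, permutation adjusted p = 0.554). Against excitatory neuron markers, chosen after the data were seen, Camkk2 was at r = 0.90 (rho = 0.86) and Pnck at r = −0.61 (rho = −0.63), both with the smallest permutation p of 1e-05.

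**Figure D5:**
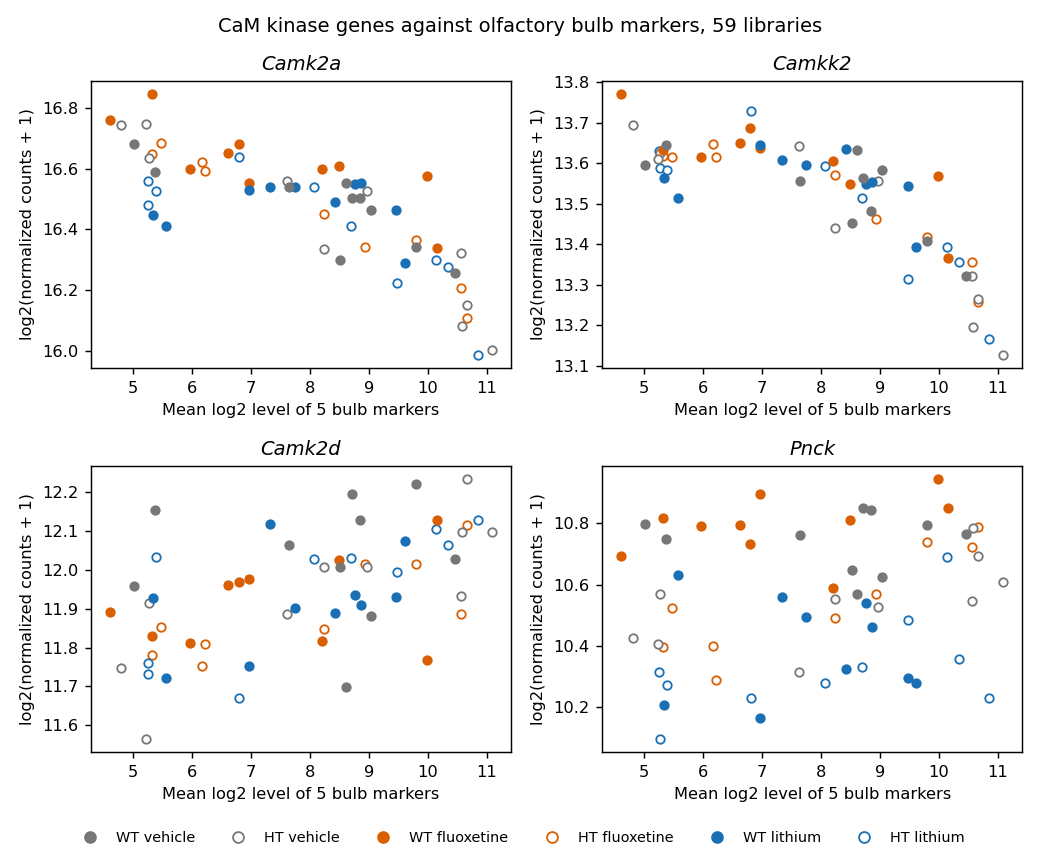
Camk2a, Camkk2, Camk2d and Pnck (vertical axes, log2 of normalized counts + 1, as measured and not centred) against the average of 5 bulb markers in the same library (horizontal axis, log2), 1 point per library, 59 in all, coloured by drug and filled for WT-labelled or open for HT-labelled. Camk2a and Camkk2 slope down and Camk2d slopes up, while in the Pnck panel most lithium libraries (blue) lie in the lower part; the group-centred r are −0.82, −0.83, 0.57 and 0.49.

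The genes whose library-to-library pattern was most like that of each member were looked up among 13905 genes with a mean of at least 50, by Pearson correlation of group-centred values over 59 libraries. These are descriptions of the best matches out of many, with no test. For Pnck they were Marcksl1 (0.80), a calmodulin-binding actin regulator, Qrfpr (0.74), a neuropeptide receptor, Rack1 (0.73), a ribosome-associated scaffold, Tuba1a (0.73), an alpha tubulin of young neurons, and Chd3 (0.72), a chromatin remodeller of the same family as Chd8. Camkk2 was most like Pld3 (0.97) and Prkar1b (0.97), the latter a regulatory subunit of protein kinase A. Camk2a was closest to Nptxr (0.96), a receptor for neuronal pentraxins, and Itpka (0.96), an inositol trisphosphate kinase of dendritic spines. Camk4 was closest to Atp2b1 (0.93), a plasma membrane calcium pump. Camk1 had weaker best matches, with Homer2 (0.73), a postsynaptic scaffold, and Ildr2 (0.71).

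The rest of the pathway was followed through 52 genes in 6 lists: other CaM kinases and CaMKII inhibitors, phosphatases and calcineurin, nuclear substrates, the AMPK arm, synaptic partners of CaMKII and calcium channels. For genotype, 1 of 52 passed, lower in HT-labelled libraries, beside 7.98% of all genes tested, and 34 of 52 were below 0 (median −0.03, log2). The gene was Crtc1, a CREB coactivator, which fell by 0.07 ± 0.020 (limma adjusted p = 0.0337), and which did not pass without the 8 libraries high in striatal markers (adjusted p = 0.0839), when lowly expressed genes were kept (0.0636) or in 6 of 59 fits with a library left out. Of the 4 other CaM kinase and inhibitor genes, the CaMKII inhibitor Camk2n1 was at −0.17 ± 0.056 and the pseudokinase Camkv at −0.07 ± 0.028, and none of the 4 passed. Synaptic partners were below 0 in 10 of 12 (median −0.04), while the 14 nuclear substrates were above 0 in 9 (median 0.006).

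Under lithium, 1 of the 52 passed, beside 4.41% of all genes, and 27 lay above 0 and 25 below. It was Camk2n2, a small protein inhibitor of CaMKII, which fell by 0.15 ± 0.045 (SE, log2; limma adjusted p = 0.0360). That call was lost when lowly expressed genes were kept (adjusted p = 0.0702) and in 14 of 40 fits with a library left out (highest adjusted p 0.0717). With fluoxetine none of the 52 passed over both genotype labels. In WT-labelled libraries alone 1 passed, beside 0.19% of all genes. It was Cacnb3, the beta 3 subunit of voltage-gated calcium channels, which rose by 0.18 ± 0.041 (limma adjusted p = 0.0497). That call was lost without the libraries high in striatal markers (0.16, adjusted p = 0.136), under 3 other settings, and in 16 of 20 fits with a library left out. In the groups compared, the only library high in striatal markers was WT-labelled vehicle female replicate 5. The 12 activity-induced genes, among them Fos, Arc and Egr1, were above 0 under lithium in 11 (median 0.23) and below 0 for genotype in 11 (median −0.11). None of them passed in either comparison.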

How the data were processed

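Prefrontal cortex RNA was prepared with a stranded poly(A) kit, per the labels' protocols. The authors deposited one table of normalized counts per gene (a normalized signal: estimated counts scaled per library, not whole numbers, so no count model was used). The submitters' processing notes name Salmon 0.11.2, R 3.6.0, DESeq2 1.19.11 and GRCm38, with no order or settings. Of 51456 gene identifiers, 51285 matched a symbol.

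Here, log2(value + 1) of the 16839 genes with a mean of at least 10 was fitted with a mean for each of the 12 groups in limma 3.58.1 (R 4.3.3; trend and robust empirical Bayes). P-values were adjusted by Benjamini-Hochberg over all genes, with calls at 0.05. The scripts were tested on simulated data. Named genes were the members, Chd8, pathway genes that passed or served as examples, and the best-correlated genes. The members and lists were chosen with earlier results of these data known. One further pathway list is not reported here. From the commonest low nonzero value of each library, taken as 1 read, depth was estimated at 25.77 to 36.88 M reads per library. No read counts were used. Alternatives covered scaling (factors from a trimmed mean of M values, TMM), filter, pseudocount, shrinkage, groups fitted, replicate block, marker covariates and left-out libraries. Permutation tests used numpy 2.4.6, with ranks and the adjustment from scipy 1.17.1.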

Additional observations from a re-analysis of the deposited data

Results flagged for a closer look

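In 120 sets of 1 kinase in 1 group, 5 had a library far from the other 4 by Dixon's test at the 95% level. Chance flags about 1 in 20 such sets. Pnck had 1906 normalized counts in WT-labelled fluoxetine female replicate 5, above the other 4 at 1770 to 1806. In WT-labelled vehicle male replicate 5, Camk1d (4216, others 4956 to 5213) and Camk2a (78225, others 92839 to 98662) were both low. Camk2b was high in HT-labelled vehicle male replicate 3 (26519, others 24932 to 25278). Camk2g was low in WT-labelled fluoxetine male replicate 5 (5925, others 7276 to 7672).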

How the results depend on the processing

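The Pnck genotype difference over all libraries passed under every alternative run, from −0.15 to −0.18 (log2), and from −0.18 to −0.16 when each library was left out in turn (limma adjusted p from 0.000651 to 0.00383). Its call in fluoxetine libraries did not, and the number of members called there went from 1 to 0 without trend and robust shrinkage, with TMM factors, with no filter on low values, with only the groups of the contrast, with the striatal or the oligodendrocyte level as covariate (the last chosen after seeing the data) and without the libraries high in striatal markers. The cause was not tested. The call held with the bulb and striatal levels together as covariates (−0.27, limma adjusted p = 0.0140). Leaving out single libraries gave 0 to 1 members called and Pnck values of −0.28 to −0.21 (adjusted p from 0.0283 to 0.107). Among these left-out fits, the call held only without HT fluoxetine female 4, male 4 or male 5, or WT fluoxetine male 2 or male 5. Members called for genotype over all libraries numbered 4 with the bulb level as covariate (Pnck, Camk1g, Camk2a and Camkk2), 2 with the replicate block (Pnck and Camk1g) and 1 to 2 with single libraries left out. Camk1g was the second without HT fluoxetine female 1, HT lithium female 2, HT lithium male 1, HT vehicle female 1, HT vehicle male 1 or 2, WT lithium female 5 or WT vehicle male 5. The Pnck lithium difference ranged from −0.30 to −0.27 over the settings and from −0.30 to −0.26 with single libraries left out. In HT-labelled libraries the latter range was −0.25 to −0.19, and in WT-labelled libraries −0.37 to −0.31.

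Same-numbered libraries of different groups correlated slightly more after group means (mean r = 0.08, from −0.37 to 0.55) than libraries of different numbers (mean r = −0.02). Of 319 same-numbered pairs 123 were over 0.1, and 19 of 59 libraries correlated best with their own number. Replicate 1 had the highest activity-induced level in 10 of 12 groups and the lowest Pnck in 8. The labels do not say what a number marks, so the libraries were treated as sharing only a number. The replicate block moved the genes called for genotype in fluoxetine from 143 to 257 and for genotype over all libraries from 1344 to 1828. No filter gave 87 and 877, the bulb covariate 268 and 1907, and leaving out the libraries high in striatal markers 68 and 1128. The Cacnb3 call in WT-labelled libraries was lost without trend and robust shrinkage (adjusted p = 0.0586), with no filter (0.0925) and with only the groups of the contrast (0.119). It held in 4 of 20 fits with a library left out (without WT fluoxetine male 5, WT vehicle female 1 or 3, or WT vehicle male 1; adjusted p from 0.0108 to 0.139). Camk2n2 kept its lithium call in 26 of 40, losing it without HT lithium female 1 or 3, HT vehicle female 1 or 4, HT vehicle male 1, WT lithium female 1, 2 or 5, WT lithium male 1, 3 or 4, WT vehicle female 2 or 3, or WT vehicle male 4 (highest adjusted p 0.0717). Crtc1 kept its genotype call in 53 of 59 (highest adjusted p 0.0559), losing it without HT fluoxetine female 2, HT fluoxetine male 4 or 5, HT lithium male 3, HT vehicle female 4 or HT vehicle male 3. No result reversed a call.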
